A study of Mus musculus with 8 samples.

Results

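The small leucine-rich proteoglycans are secreted matrix proteins, and 10 of them were followed here by gene symbol: *Bgn*, *Dcn*, *Lum*, *Fmod*, *Ogn*, *Omd*, *Prelp*, *Aspn*, *Kera* and *Epyc*. They are 10 of 22664 different gene names in the table, and each was measured by 1 of its 22206 probe sets. The samples were gastrocnemius (GAS) muscles of male wild-type C57/Bl6j mice, injected at about 10 weeks of age and taken 12 weeks later at 22 weeks. One leg received an adeno-associated virus (AAV) with a short hairpin RNA against MYTHO (MYTHO-KD, 4 muscles), and the scramble control (4 muscles) went into the opposite leg, so both groups carried an AAV and an sh-RNA. The virus was given into the muscle and was of serotype 1, which the methods describe as having a tropism for skeletal muscle cells. The U6 promoter that drives the sh-RNA is active in most cell types, and which cells took up the virus was not tested here. RNA came from whole muscle with its connective tissue. Total RNA was read on Clariom S Mouse arrays, in which a probe set is the group of short probes for one gene.

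Each value below is the authors' average of a group on the log2 scale with its SD over 4 arrays. Single arrays were not analysed here, so whether the groups overlap cannot be seen, and the legs of one mouse could not be paired. Averages over all probe sets ran from 3.18 to 19.93, the median SD was 0.27 in each group, and MYTHO-KD minus scramble had a median of -0.01. The target of the sh-RNA, listed as *D230025D16Rik*, averaged 7.71 (SD 0.66) in MYTHO-KD and 10.02 (SD 0.37) in scramble, a difference of -2.31 (adjusted p = 0.0138, limma). Muscle fibre markers were near the top of the scale in both groups, with averages from 17.58 in scramble to 19.93. For those at 19.93 a further rise could not be seen.

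Small leucine-rich proteoglycans have a short protein core built of leucine-rich repeats, to which chains of chondroitin, dermatan or keratan sulphate can be attached. Many bind collagen and help to set the width and spacing of its fibrils, and several also hold growth factors of the TGF-beta family in the matrix. In muscle they lie in the connective tissue around fibres and in tendon, and are made mainly by fibroblasts and tendon cells. By sequence they fall into classes: *Bgn*, *Dcn* and *Aspn* are class I, *Lum*, *Fmod*, *Prelp*, *Kera* and *Omd* class II, and *Ogn* and *Epyc* class III.

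Of the 10 members, 3 rose in MYTHO-KD: *Bgn*, *Prelp* and *Lum*. A probe set counts as called here at a difference of 2-fold or more whose unadjusted p is under 0.05, by the moderated test of limma, in which the variance of a probe set is shrunk toward the typical value. Over all probe sets, 0.86% were called higher, so 3 of 10 is above that background. No member was called lower, beside 0.257% of all probe sets. In direction, 8 members had a higher average in MYTHO-KD and 2 a lower one, and their median difference was 1.00 on the log2 scale, while 46.9% of all probe sets lay above 0. At an unadjusted p under 0.05, whatever the fold, 4 members were higher and 1 was lower, with 6.48% and 5.52% of all probe sets. At an adjusted p under 0.05, *Bgn* and *Lum* were higher, as were 0.18% of all probe sets. In whole-muscle RNA, more cells of a type and more RNA per cell cannot be told apart, and this holds for each rise given here. The plot of averages sets both groups side by side.

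**Figure D1:**
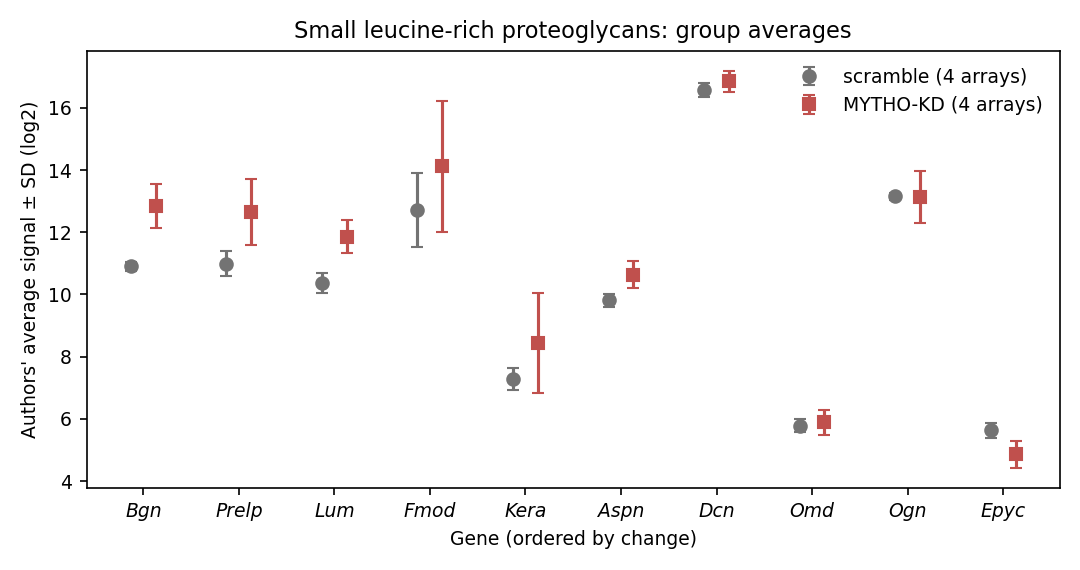
Average log2 signal of the 10 members in scramble and MYTHO-KD GAS muscles (4 arrays per group). Points are the authors' averages and bars their SDs. *Bgn* at 10.90 and 12.84 and *Lum* at 10.36 and 11.85 stand clear of their SDs, as do *Prelp*, *Aspn* and the lower *Epyc*. The SDs of *Fmod* overlap. Signals of different probe sets are not on a common scale of abundance, so only the points of one gene should be compared.

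The 5′ flanks of 4 members are shown because their point values were unlike, though whether the members differ in their change was not tested. They are *Bgn* and *Prelp*, which were called higher, and *Aspn* and *Ogn*, which lie in one group of genes on chromosome 13. *Aspn* and *Ogn* had differences of 0.83 and -0.02. Each flank is the 250 bases before the gene's start in RefSeq on GRCm38.p6, read 5′ to 3′ on the gene's strand. These starts can differ from those of the authors' coordinates, in which *Prelp* reaches to 133921414, inside the flank shown. Capitals mark matches, on either strand, to motifs that promoters often hold. They were the TATA box, spelled TATAAA, and the CCAAT box, spelled by its name. The GC box was spelled GGGCGG. The motif of the AP-1 factors was spelled TGANTCA, with N for any base. The motif of the SMAD factors, which act below TGF-beta, was spelled CAGACA. The *Bgn* flank is chrX:73483351-73483600 on the plus strand, that of *Prelp* is chr1:133921402-133921651 on the minus strand, and those of *Aspn* and *Ogn* are chr13:49544193-49544442 and chr13:49607765-49608014 on the plus strand.
Bgn: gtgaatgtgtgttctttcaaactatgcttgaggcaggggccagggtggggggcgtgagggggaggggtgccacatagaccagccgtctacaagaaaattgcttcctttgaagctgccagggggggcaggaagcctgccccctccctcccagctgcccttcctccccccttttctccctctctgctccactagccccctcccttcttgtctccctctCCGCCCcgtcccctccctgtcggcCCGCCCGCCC
Prelp: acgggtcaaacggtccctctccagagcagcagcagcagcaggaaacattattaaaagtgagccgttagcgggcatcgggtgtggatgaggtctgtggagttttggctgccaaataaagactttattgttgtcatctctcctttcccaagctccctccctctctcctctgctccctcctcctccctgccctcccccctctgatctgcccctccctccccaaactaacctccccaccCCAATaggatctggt
Aspn: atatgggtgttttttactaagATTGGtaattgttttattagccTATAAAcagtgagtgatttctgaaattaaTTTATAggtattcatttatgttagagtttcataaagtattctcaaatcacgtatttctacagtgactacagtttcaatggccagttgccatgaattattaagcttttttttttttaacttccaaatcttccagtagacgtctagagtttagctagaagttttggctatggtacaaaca
Ogn: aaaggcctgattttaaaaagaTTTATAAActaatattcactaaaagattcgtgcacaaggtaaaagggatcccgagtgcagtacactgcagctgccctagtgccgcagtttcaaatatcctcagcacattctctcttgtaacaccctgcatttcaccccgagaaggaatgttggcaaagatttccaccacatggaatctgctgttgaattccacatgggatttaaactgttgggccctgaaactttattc

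The *Bgn* flank is rich in G and C (64.4%, above 81.6% of 32851 promoters in the table) and held 3 GC boxes, from positions -34, -10 and -6 before the start, the last of which overlaps the one before it. The *Prelp* flank was 55.6% G and C and held 1 CCAAT box, from position -15. The *Aspn* flank was poor in G and C (above only 1.47% of promoters), with TATA boxes from -207 and -178 and a CCAAT box from -229. The *Ogn* flank held 2 overlapping TATA boxes, from -229 and -227. Among the other members with a promoter in the table, *Kera* held 3 CCAAT boxes, and *Fmod*, *Omd* and *Epyc* held none of the 5 motifs. Of all promoters of the same length, 12.4% held the TATA box, 33.8% the CCAAT box, 32.7% the GC box, 6.75% the AP-1 motif and 17.1% the SMAD motif. No motif was held by all 3 of the promoters of *Bgn*, *Prelp* and *Aspn*, the members with a promoter here that were higher at an unadjusted p under 0.05. These matches are descriptions of the letters and not binding sites. A promoter was found for 8 of the 10 members, and those of *Lum* and *Dcn* were not analysed here.

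Class I held the member with the largest rise of the 10 and one of the smaller differences. *Bgn* encodes biglycan, which carries chondroitin or dermatan sulphate, binds collagen and, when released from the matrix, acts on Toll-like receptors. Its average was 12.84 (SD 0.71, n = 4) in MYTHO-KD and 10.90 (SD 0.14, n = 4) in scramble. This was a rise of 1.94 on the log2 scale, or 3.84-fold (SE 0.294, 95% confidence interval 1.30 to 2.58, adjusted p = 0.029, limma). The distance between the groups was more than the sum of their SDs. This held for 5 of the 10 members, namely *Bgn*, *Prelp*, *Lum*, *Aspn* and the lower *Epyc*, and for 8.03% of all probe sets. *Dcn* encodes decorin, the closest relative of biglycan, which binds collagen and TGF-beta. It averaged 16.86 (SD 0.34) in MYTHO-KD and 16.58 (SD 0.22) in scramble, a difference of 0.28 (95% confidence interval -0.16 to 0.72, unadjusted p = 0.191, adjusted p = 0.644, limma). The interval for *Dcn* ended below a 2-fold rise.

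*Aspn* encodes asporin, a class I protein with a stretch of aspartic acid residues, which binds collagen and TGF-beta. Its average was 10.64 (SD 0.43) in MYTHO-KD and 9.81 (SD 0.22) in scramble, a difference of 0.83 or 1.78-fold (SE 0.222, 95% confidence interval 0.34 to 1.32). The unadjusted p was 0.00292 and the adjusted p 0.154 (limma), so *Aspn* was outside the call by its fold and passed at a fold of 1.5. The 3 members of class I thus had differences of 0.28, 0.83 and 1.94. Whether these differ from each other was not tested, because the genes were read on the same arrays and single arrays were not at hand.

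Class II held the other called members. *Lum* encodes lumican, a keratan sulphate proteoglycan that limits the width of collagen fibrils. It averaged 11.85 (SD 0.53, n = 4) in MYTHO-KD and 10.36 (SD 0.32, n = 4) in scramble. This was a rise of 1.49, or 2.81-fold (SE 0.262, 95% confidence interval 0.92 to 2.06, adjusted p = 0.0443, limma). *Prelp* encodes a protein with an arginine- and proline-rich end that binds heparan sulphate and links basement membranes to collagen. Its average was 12.65 (SD 1.07) in MYTHO-KD and 10.99 (SD 0.41) in scramble, a rise of 1.66 or 3.16-fold (SE 0.431, 95% confidence interval 0.72 to 2.60, unadjusted p = 0.00237, limma). After adjustment over all probe sets its p was 0.149, so *Prelp* was called by fold and unadjusted p alone.

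The adjusted calls of *Bgn* and *Lum* rested on the moderated variance. Without moderation their adjusted p was 0.210 and 0.247, and with unequal variances 0.452 and 0.429, while both kept at least 2-fold and an unadjusted p under 0.05 in these fits. Over all other fits the adjusted p ran from 0.00425 to 0.452 for *Bgn* and from 0.0121 to 0.429 for *Lum*.

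*Fmod* and *Kera* had higher averages in MYTHO-KD with a wide spread, and neither passed the test. *Fmod* encodes fibromodulin, abundant in tendon, where it acts on the early growth of collagen fibrils. It averaged 14.12 (SD 2.11) in MYTHO-KD and 12.72 (SD 1.18) in scramble, a difference of 1.40 with a 95% confidence interval of -0.50 to 3.30 (unadjusted p = 0.135, adjusted p = 0.574, limma). *Kera* encodes keratocan, best known as a keratan sulphate proteoglycan of the cornea. Its average was 8.45 (SD 1.61) in MYTHO-KD and 7.27 (SD 0.35) in scramble, a difference of 1.18 with a 95% confidence interval of -0.14 to 2.50 (unadjusted p = 0.0743, adjusted p = 0.467, limma). Both intervals hold no change as well as rises of well over 2-fold. *Omd* encodes osteomodulin, a keratan sulphate proteoglycan of bone. It averaged 5.89 (SD 0.41) in MYTHO-KD and 5.78 (SD 0.20) in scramble, a difference of 0.11 (95% confidence interval -0.36 to 0.58, unadjusted p = 0.618, adjusted p = 0.899, limma). Both *Omd* averages were close to the 30th percentile of all mean signals, 5.72.

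The class III members had no higher average in MYTHO-KD. *Ogn* encodes osteoglycin, also called mimecan, which acts on the growth of collagen fibrils. It averaged 13.14 (SD 0.83) in MYTHO-KD and 13.16 (SD 0.11) in scramble, a difference of -0.02 with a 95% confidence interval of -0.74 to 0.70 (unadjusted p = 0.953, adjusted p = 0.99, limma). In the moderated fit this interval ends short of 2-fold in both directions. It rests on the shrunken variance, and no interval was computed without moderation, so a 2-fold change is not excluded. *Epyc* encodes epiphycan, a dermatan sulphate proteoglycan of growth plate cartilage. Its average was 4.86 (SD 0.44) in MYTHO-KD and 5.63 (SD 0.25) in scramble, a difference of -0.77 or 0.586-fold (SE 0.229, 95% confidence interval -1.27 to -0.27, unadjusted p = 0.0057, adjusted p = 0.199, limma). *Epyc* lay below the 30th percentile in both groups, although the table flags it, like all 10 members, as expressed in each. The plot of differences orders the members by size.

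**Figure D2:**
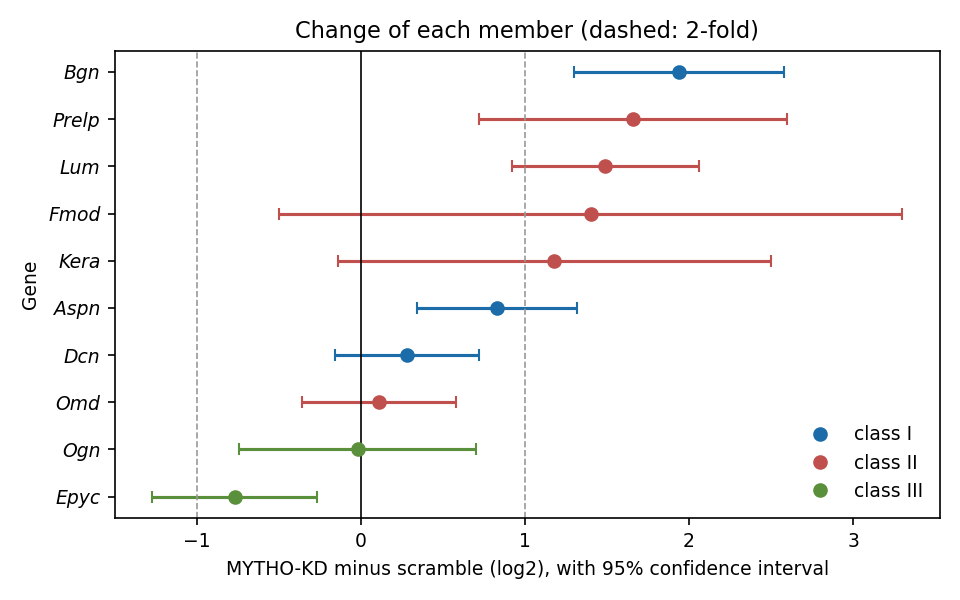
Difference of the group averages (MYTHO-KD minus scramble, log2) for each member, with 95% confidence intervals from limma's moderated test. Colours give the class and dashed lines mark 2-fold. The intervals of *Bgn* (1.30 to 2.58), *Prelp* (0.72 to 2.60), *Lum* (0.92 to 2.06) and *Aspn* (0.34 to 1.32) lie above 0, that of *Epyc* (-1.27 to -0.27) lies below it, and the other 5 include 0.

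The spread between muscles was larger in MYTHO-KD than in scramble for all 10 members, while this was so for 48.1% of all probe sets. It was not limited to the members. Among the marker lists read below, 8 of 10 macrophage genes and 8 of 10 tenocyte genes also had the larger SD after the knockdown. For macrophage markers the median SD was 0.28 for scramble muscles, against 0.59 after the knockdown. Counts were lower for fibroblast markers (7 of 12), endothelial markers (3 of 7) and the further genes of the family (2 of 8). The median SD of the members was 0.62 in MYTHO-KD and 0.23 in scramble, beside 0.27 in each group over all probe sets. *Ogn* stood farthest apart, with an SD 7.55 times as large in MYTHO-KD, and 0.536% of probe sets had a higher ratio. For *Bgn* the ratio was 5.07 (1.62% of probe sets were higher) and for *Kera* 4.6 (2.2% were higher). *Ogn* thus had averages within 0.02 of each other and a wide spread among the 4 MYTHO-KD muscles, whereas *Bgn* differed in both. The lowest ratio was that of *Dcn*, 1.55. The members were read on the same arrays, so they do not count as independent of each other, and whether 1 muscle carried the spread could not be examined. No test of the ratio was run.

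**Figure D3:**
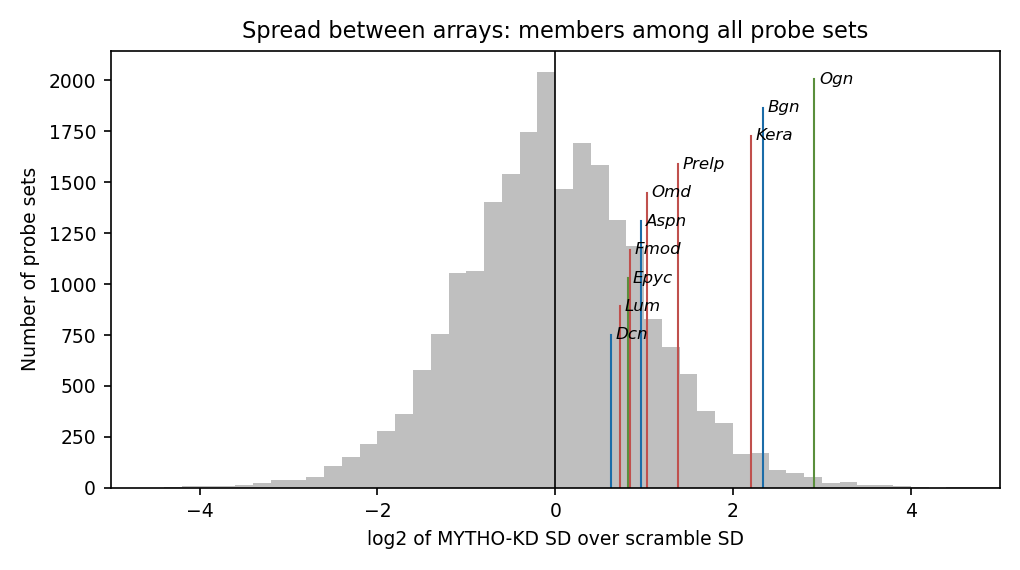
Number of probe sets (grey bars) by the log2 of the MYTHO-KD SD over the scramble SD, with each member drawn as a labelled line whose height carries no value and whose colour is its class (blue class I, red class II, green class III). All 10 members lie to the right of 0, where the SDs are equal, from *Dcn* (ratio 1.55) to *Ogn* (7.55).

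Apart from *Bgn*, which lies alone on the X chromosome, the members sit in groups on chromosomes 1, 10 and 13 (coordinates of the authors' table, mm10). On chromosome 10, *Dcn*, *Lum*, *Kera* and *Epyc* follow each other on the plus strand within 203.0 kb, from 97479500 to 97682454. Their differences in this order were 0.28, 1.49, 1.18 and -0.77, so the called member *Lum*, from 97565501 to 97572703, lay 47.3 kb past *Dcn* and 34.5 kb before *Kera*. On chromosome 13, *Aspn*, *Omd* and *Ogn* lie within 80.1 kb, from 49544443 to 49624500, with differences of 0.83, 0.11 and -0.02. In both groups, genes next to each other had point values of unlike size. Some of their intervals overlap, and whether neighbouring genes differ in their change was not tested.

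On chromosome 1, *Prelp* (133910304 to 133921414, minus strand) and *Fmod* (134037254 to 134048277, plus strand) lie 115.8 kb apart, with differences of 1.66 and 1.40. *Optc*, another member of the family, lies in the same region and differed by -0.15. *Bgn* spans 73483602 to 73495936 on the plus strand of the X chromosome. The genes nearest to it, *Haus7*, *Trex2*, *Dusp9* and *Atp2b3*, had differences from -0.37 to 0.01. None of the 16 flanking genes read, 4 at each of the 4 places, was called. This is near the share over all probe sets, of which 0.86% were called higher and 0.257% lower. Of the flanking genes, *Btg2* (0.71), *Chit1* (-0.42), *Ecm2* (0.58) and *Iars* (-0.59) passed an unadjusted p under 0.05 (limma).

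**Figure D4:**
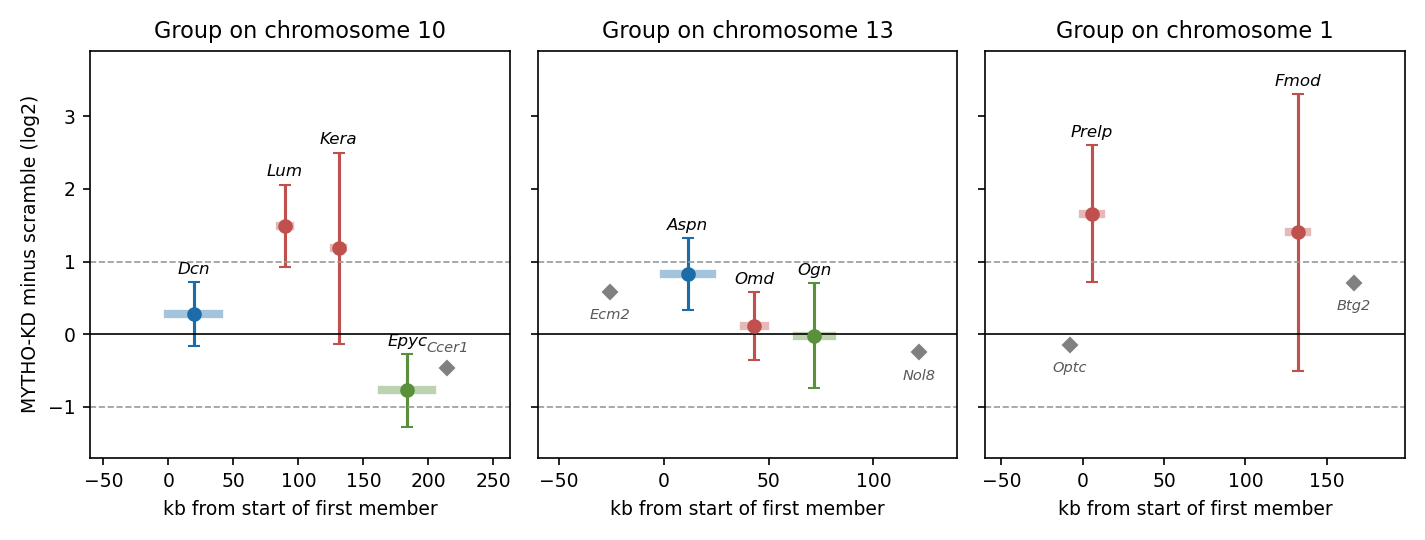
Difference of the group averages (MYTHO-KD minus scramble, log2) against the distance in kb from the start of the first member, for the members on chromosomes 10, 13 and 1 and the flanking genes within the drawn range. Members are circles in the colour of their class (blue class I, red class II, green class III) with 95% confidence intervals and a pale bar for the length of the gene, and flanking genes are grey diamonds without intervals. On chromosome 10 *Lum* (1.49) and *Kera* (1.18) stand between *Dcn* (0.28) and *Epyc* (-0.77), and no grey gene reaches the dashed lines at 2-fold.

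Among 8 further genes of the family, 1 rose and none was called lower, with a median difference of 0.26. *Podn* encodes podocan, a collagen-binding class V member. It averaged 8.71 (SD 0.37) in MYTHO-KD and 7.62 (SD 0.17) in scramble, a rise of 1.09 (SE 0.202, adjusted p = 0.0547, limma). *Ecm2*, next to *Aspn* on chromosome 13, differed by 0.58 (unadjusted p = 0.0298, limma) and *Tsku* by 0.48 (unadjusted p = 0.0618, limma). *Chad*, chondroadherin of cartilage and tendon, differed by 1.00 with an SD of 1.69 in each group (unadjusted p = 0.269, limma). A list of hyalectans, basement membrane proteoglycans and *Srgn*, which is neither, had 4 of 8 genes above 0, none called and a median of -0.01. In it *Hspg2*, perlecan, differed by 0.94 (unadjusted p = 0.00277, limma). The next by p, *Srgn* (-0.27), *Agrn* (0.20) and *Bcan* (-0.17), did not pass.

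The proteins that the members bind and the enzymes that cut them were taken next. The list of collagens held 11 genes of types I, III, V, VI, XII and XIV, and did not hold the cartilage collagen *Col2a1* (-0.08). Each of the 11 had a higher average in MYTHO-KD, with a median difference of 0.51, and 1 was called. This was *Col3a1*, at 11.19 (SD 0.65) in MYTHO-KD and 9.76 (SD 0.52) in scramble, a rise of 1.43 (adjusted p = 0.102, limma). *Col5a1* (0.51) and *Col6a3* (0.52) passed the unadjusted p and not 2-fold, and *Col5a2* (0.51) passed neither. A list of 13 genes held proteases that process the family or collagen and *Pcolce*, which is no protease but enhances procollagen cleavage. Of these, *Mmp2*, a gelatinase, rose by 1.17 (adjusted p = 0.199, limma) and *Pcolce* by 1.15 (adjusted p = 0.12, limma). *Bmp1*, which removes the propeptide of biglycan, differed by 0.46 (unadjusted p = 0.0545, limma) and *Mmp13*, a collagenase, by 0.36 (unadjusted p = 0.0883, limma). The median of the 13 was 0.20.

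Of 15 growth factors, sarcolemmal and matrix proteins bound by the family, 10 were above 0 and the median was 0.29. *Fn1*, fibronectin, rose by 1.35 (adjusted p = 0.154, limma). *Ctgf*, a matrix-bound regulator of TGF-beta signalling, rose by 1.29 (adjusted p = 0.283, limma). *Mstn*, myostatin, which decorin can bind, fell by 1.26 on the log2 scale. *Mstn* averaged 12.45 (SD 1.10) in MYTHO-KD and 13.71 (SD 0.39) in scramble (unadjusted p = 0.0142, adjusted p = 0.275, limma). *Tgfb3* differed by 0.89 (unadjusted p = 0.000701, limma), and *Musk*, the kinase of the neuromuscular junction to which biglycan binds, by -0.71 (unadjusted p = 0.00574, limma). *Tnxb*, tenascin-X, which decorin binds, differed by 0.64 (unadjusted p = 0.00251, limma). These 3 passed the unadjusted p and not 2-fold.

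Of 15 receptors reported for the family, 11 were above 0, 2 were called higher and none lower, with a median of 0.40. *Tlr4*, a receptor for soluble biglycan, averaged 8.69 (SD 0.42) in MYTHO-KD and 7.22 (SD 0.39) in scramble, a rise of 1.47 (SE 0.248, adjusted p = 0.038, limma). *Tlr2*, the other Toll-like receptor of biglycan, differed by 0.06. *Lrp1*, an endocytic receptor for decorin, rose by 1.00, which is at the 2-fold limit (adjusted p = 0.191, limma). *Kdr* (0.75) and the ATP receptor *P2rx4* (0.55) passed the unadjusted p and not 2-fold.

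The enzymes that build the sugar chains had smaller median differences than the members. Of 16 enzymes of chondroitin and dermatan sulphate, 9 were above 0, the median was 0.03, and only *Ust*, which adds sulphate to uronic acid, was called (1.13, unadjusted p = 0.00786, adjusted p = 0.219, limma). *Dsel* (0.73) and *Chpf* (0.88) passed the unadjusted p upward and *Csgalnact2* (-0.46) downward. The 6 enzymes of the linker that joins chain and core were all above 0, with a median of 0.17 and none called. *B3gat3*, which adds the last sugar of the linker, differed by 0.47 (unadjusted p = 0.0144, limma), and *Xylt1* (0.28), *B3galt6* (0.20) and *Fam20b* (0.15) did not pass. The 7 enzymes of keratan sulphate had a median of -0.09 and none called or past the unadjusted p. Those of lowest p were *B4galt1* (0.40), *B3gnt2* (0.49), *Chst1* (-0.42) and *Chst5* (-0.26). Of these 7 enzymes, 4 had a mean signal below 5.72, the limit for dim probe sets, beside 1 of the 10 members. *Chst5* was flagged as expressed in neither group, and *Chst1* was not flagged as expressed in MYTHO-KD. The range of signals limits such faint genes, and with them the median of -0.09. Whether members and enzymes differ in their median difference was not tested.

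**Figure D5:**
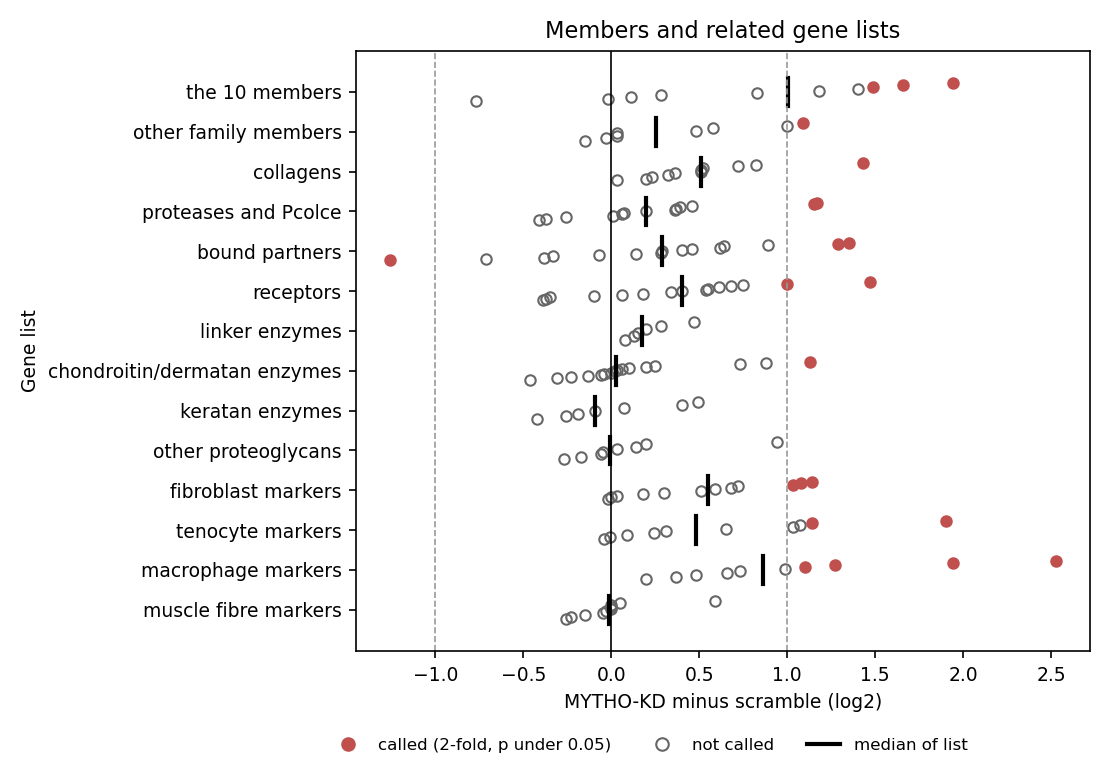
Difference of the group averages (MYTHO-KD minus scramble, log2) for each gene of the members and of related lists. Filled points are called (at least 2-fold and an unadjusted p under 0.05), open points are not, black bars are list medians and dashed lines mark 2-fold. The median of the 10 members is 1.00, that of macrophage markers 0.86, and that of muscle fibre markers -0.01.

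Markers of cells that can make these proteins, or that come into damaged muscle, were read beside the members. Fibroblast markers had 10 of 12 genes above 0, 3 called higher (*Pi16* 1.14, *Mfap5* 1.08 and *Fbn1* 1.03) and a median of 0.55. Their averages ran from 6.02 to 14.78 in scramble and from 6.05 to 15.46 in MYTHO-KD. At an unadjusted p under 0.05, 6 of the 12 were higher and none lower. *Ly6a* (0.72), *Gsn* (0.68) and *Col15a1* (0.51) were among these 6 without reaching 2-fold, while *Pdgfra* (0.18) and *Dpt* (0.30) did not pass.

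Tenocyte markers had 8 of 10 genes above 0, 2 called higher and a median of 0.48, with averages from 5.47 to 10.51 in scramble and from 5.43 to 12.41 in MYTHO-KD. *Thbs4* averaged 12.41 (SD 1.36) in MYTHO-KD and 10.51 (SD 1.13) in scramble, a rise of 1.90 (unadjusted p = 0.0124, adjusted p = 0.263, limma). *Comp* rose by 1.14 (adjusted p = 0.37, limma). The tendon marker *Tnmd* averaged 9.46 (SD 1.63) and 8.43 (SD 0.85), a difference of 1.03 (unadjusted p = 0.15, limma), and *Cilp* (1.07), *Tnc* (0.65) and *Scx* (0.24) did not pass either. Like *Fmod* and *Kera*, several tendon genes had a wide spread, with a median SD of 0.71 in MYTHO-KD and 0.44 in scramble. How much tendon each sample held, and its part in the values of *Fmod*, *Kera*, *Prelp* and *Chad*, was not tested.

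Macrophage markers had all 10 genes above 0, 4 called higher and a median of 0.86, with averages from 5.33 to 9.56 in scramble and from 5.53 to 11.11 in MYTHO-KD. *Cd68* differed by 2.53, *Lyz2* by 1.94, *C1qb* by 1.27 and *Ctss* by 1.10. Muscle fibre markers had 2 of 10 genes above 0, none called and a median of -0.01. Of the others, *Acta1*, *Myh4* and *Atp2a1* were listed at 19.93 with an SD of 0 in both groups, at the top of the scale, so their difference of 0 carries no measurement. *Myh1*, a fast myosin heavy chain, differed by 0.59 (unadjusted p = 0.00873, adjusted p = 0.23, limma), and *Ttn* (-0.26), *Actn3* (-0.23) and *Pvalb* (-0.15) did not pass. Medians of the fibroblast, tenocyte and macrophage markers were thus above 0, as was that of the members, and the part of these cells in the rises of *Bgn*, *Prelp* and *Lum* was not tested.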

How the data were processed

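GAS muscle RNA of 8 samples (4 MYTHO-KD, 4 scramble, 12 weeks) was hybridized to Clariom S Mouse arrays. Per the methods, normalization by the authors was SST-RMA (Transcriptome Analysis Console), which gives log2 values and widens the range of low signals. The submitters' processing notes name RMA, Expression Console and mm10. The deposited table gives 1 log2 average, 1 SD and an expression flag per group. It also holds the authors' fold changes, p-values and false discovery rates, which were not used. The kind of average is not stated, and p-values here take it as a plain mean.

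The planned limma fit on arrays could not be run. The same moderated test was computed from averages and SDs with limma 3.58.1 in R 4.3.3 (squeezeVar, 6 residual degrees of freedom, prior SD 0.284, prior degrees of freedom 5.85), two-sided and adjusted by Benjamini-Hochberg over 22206 probe sets. The procedure was tested on simulated data. A call needed 2-fold and an unadjusted p under 0.05, as in the methods. Under that rule the paper reports fewer genes in each direction than the probe sets called here. For 21 probe sets the SD of a group is listed as 0. Samples were grouped by their labels. Nothing in the labels says that replicates are separate animals, so p-values measure only the spread between these samples. The number of arrays, 4 per group, limits the precision.

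Members and gene lists (other family members, collagens, bound proteins, proteases with *Pcolce*, receptors, chain and linker enzymes, other proteoglycans, and markers of fibroblasts, tenocytes, macrophages, muscle fibres, cartilage and bone, endothelium, smooth muscle and Schwann cells) were chosen with earlier results of these data known. The rule named the members, the target, the 4 genes of lowest p in each list and family members beside the members on a chromosome. *Mstn*, *Ctgf*, *Tlr2*, *Pdgfra*, *Dpt*, *Gsn*, *Col15a1*, *Tnmd*, *Scx*, *Acan*, *Bglap*, *Acta1*, *Myh4*, *Atp2a1* and the neighbours of *Bgn* were named after their values were seen. So were the flanking genes *Btg2*, *Chit1* and *Iars*. One gene that the rule selects is not reported here. Promoters came from RefSeq (GRCm38.p6), matched by symbol. Alternatives were no moderation, unequal variances, trended and robust moderation, leaving out dim probe sets (those with a mean below 5.72), only probe sets flagged as expressed in both groups, centring on the median difference, 1 probe set per symbol (for counts), 1.5-fold, and an adjusted p.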

Additional observations from a re-analysis of the deposited data

How the results depend on the processing

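The number of probe sets called higher, 191, became 787 at 1.5-fold and 40 at an adjusted p under 0.05, and that of probe sets called lower, 57, became 500 and 21. At 1.5-fold, members called lower went from 0 to 1 (*Epyc*), and the calls of higher genes went from 1 to 3 for chondroitin and dermatan sulphate enzymes, from 2 to 5 for bound proteins, from 0 to 1 for other proteoglycans and from 2 to 4 for receptors. For single members, 76 of 79 alternative values kept the call of the main setting. The exceptions were *Prelp*, lost at the adjusted p (0.149), and *Aspn* and *Epyc*, gained at 1.5-fold. Most of the 79 values belong to members that were not called, for which the same call means only that they stayed uncalled. The settings of 1.5-fold and adjusted p reuse the p-values of the main fit. Over the other fits the adjusted p ran from 0.121 to 0.551 for *Prelp*, from 0.102 to 0.487 for *Aspn* and from 0.155 to 0.522 for *Epyc*, which the filter on dim probe sets left out. No paired analysis was possible because the table analysed holds group averages, and leaving out single arrays was not run for the same reason. The range of signals limits faint genes such as *Epyc* and *Omd*.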

Other observations

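Markers of 4 further cell types of muscle and the tissues around it had few differences. Of 8 cartilage and bone markers, 3 were above 0 and none was called, with a median difference of -0.04. *Sox9*, the transcription factor of cartilage and tendon precursors, averaged 8.96 (SD 0.46) in MYTHO-KD and 7.97 (SD 0.16) in scramble, a difference of 0.99 just under 2-fold (unadjusted p = 0.000846, limma). The cartilage genes *Col2a1* (-0.08) and *Acan* (0.03) and the bone gene *Bglap* (-0.05) had differences near 0, and *Matn1* (-0.36) and *Ibsp* (-0.18) did not pass the unadjusted p. All 7 endothelial markers were above 0, none was called, and the median was 0.34, with *Kdr*, a VEGF receptor that decorin also binds, at 0.75. *Tek* (0.53), *Emcn* (0.34) and *Cdh5* (0.37) did not pass the unadjusted p. Of 7 smooth muscle and pericyte markers, 5 were above 0 with none called and a median of 0.14, those of lowest p being *Cspg4* (0.27), *Myh11* (0.25), *Cnn1* (0.22) and *Rgs5* (0.14). Of 6 Schwann cell markers, 3 were above 0 with none called and a median of -0.06, with *Mbp* at -0.42, *Pmp22* at 0.28 and *Sox10* at -0.30.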
